A study of Danio rerio with 10 samples.

Results

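The 9 genes described here give rise to maternal oocyte factors and germ plasm RNAs, and were taken by symbol from the gene tables: buc, tdrd7, vasa, dazl, bmp15, gdf9, zar1, cth1 and h1m. All 9 were listed at 3.3 hours post fertilization (hpf) among 14236 genes under Ensembl annotation and 9548 under RefSeq annotation. At 96 hpf only vasa was listed, among 18910 and 12415 genes. RNA had been extracted from pooled whole zebrafish of the AB line, as blastula embryos at 3.3 hpf and as larvae at 96 hpf. The 3 BaP libraries at 3.3 hpf and the 2 at 96 hpf came from animals exposed to benzo[a]pyrene (BaP) at 50 µg/L, a combustion product that binds the aryl hydrocarbon receptor. The 3 control libraries at 3.3 hpf and the 2 at 96 hpf came from animals whose treatment label gives a volume of 0.1 mL/L and no agent. When exposure began, how long it lasted and whether the parents were also exposed are not given here. The labels do not say how many animals were pooled or whether each replicate was a clutch of its own, and p-values thus reflect differences among these libraries alone, possibly technical ones.

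In zebrafish, germ plasm is an aggregate of RNA and protein that forms in the oocyte and is later inherited by the few cells that become primordial germ cells. In those cells its RNAs are protected, while copies in the other cells of the embryo are degraded once the embryo begins to transcribe its own genome. Oocyte RNAs that serve egg growth and maturation are loaded at the same time and are cleared by the same transition. At 3.3 hpf a whole embryo therefore still holds most of its maternal RNA, and at 96 hpf germ cells are a very small share of the larva.

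Levels are given in CPM, the authors' read values with the same total in every library, here rescaled between libraries of an age. They are not corrected for gene length, so an order of genes by CPM, given below for some lists, is not an order of transcript number. Reads on listed genes came to between 17.5 M and 22.2 M per library at 3.3 hpf, and between 13.2 M and 17.7 M at 96 hpf. The labelled ages fitted the larval tissue markers, since 0 of 14 larval tissue genes were listed at 3.3 hpf and 14 of 14 at 96 hpf. The 3.3 hpf libraries differed in early zygotic transcript, the RNA first made by the embryo. Listing of early zygotic genes did not separate the ages, with 22 of 46 listed at 3.3 hpf and 26 of 46 at 96 hpf. Averaged over 22 genes of an early zygotic list and set against the 6-library mean on the log2 scale, control replicates 1, 2 and 3 deviated by 1.47, -1.96 and -0.50. The deviation was -1.83, 2.81 and 0.00 in BaP replicates 1, 2 and 3, so both groups held libraries with much and with little zygotic RNA.

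Among the germ plasm components, buc encodes Bucky ball, the protein that organizes the Balbiani body in which zebrafish germ plasm assembles. Control libraries held 782, 835 and 813 CPM, and BaP libraries held 880, 579 and 707 CPM. The controls lay close together, and the BaP libraries lay on both sides of them. The log2 difference between BaP and control was -0.19 (SE 0.14, limma adjusted p = 0.912). It was -0.34 without BaP replicate 1 and -0.038 without BaP replicate 2. The Ensembl transcript table split it into buc-001 and buc-002, with 84.9% ± 0.91 of the buc CPM on buc-001 in controls and 85.9% ± 1.75 in BaP embryos (SD, n = 3).

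The gene tdrd7 encodes a Tudor domain protein of germ granules. Control libraries held 241, 351 and 246 CPM, and BaP libraries held 287, 215 and 262 CPM. Control replicate 2 was highest and BaP replicate 2 lowest, and the groups overlapped. The log2 difference was -0.12 (SE 0.17, limma adjusted p = 0.934). Nearly all of it, 99.0% ± 0.48 in controls and 98.8% ± 0.36 in BaP embryos (SD, n = 3), was assigned to transcript tdrd7-001. A separate entry, TDRD7 (1 of 2), which was looked up after its values were seen, had 12.4, 1.15 and 1.86 CPM as control values and 0.72 to 1.06 CPM as BaP values. Its control level was set by control replicate 1.

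The gene vasa, also called ddx4, encodes a DEAD-box RNA helicase used as a marker of germ cells across animals. Control libraries held 348, 379 and 321 CPM, and BaP libraries held 352, 420 and 364 CPM. Its highest library was 1.31 times its lowest, the narrowest range of the 9 genes. The log2 difference was 0.12 (SE 0.10, limma adjusted p = 0.912), and it was 0.04 without BaP replicate 2 and 0.19 without control replicate 2. Its reads were spread over 7 Ensembl transcripts, led by vasa-001 with 39.7% ± 6.50 of the vasa CPM in controls and 42.3% ± 1.93 in BaP embryos (SD, n = 3). The share on vasa-003 was 13.1% ± 2.41 in controls and 8.47% ± 1.44 in BaP embryos, and that on vasa-002 was 27.0% ± 6.92 and 23.7% ± 2.04. Transcripts of 1 gene share exons, so the split depends on how the authors assigned shared reads, and shares were not tested.

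The gene dazl encodes an RNA-binding protein of germ cells that promotes translation. Control libraries held 46.4, 123 and 78.3 CPM, and BaP libraries held 119, 118 and 91.0 CPM. Control replicate 1 lay far below the other controls, and the highest dazl library was 2.65 times the lowest, the widest range of the 9 genes. The log2 difference was 0.50 (SE 0.32, limma adjusted p = 0.906). It was 0.15 without control replicate 1 and 0.85 without control replicate 2. Of the 2 libraries with the most zygotic RNA, control replicate 1 had the lowest dazl level and BaP replicate 2 had 118 CPM. With the early zygotic mean as a covariate the dazl difference was 0.59 (limma adjusted p = 0.763). The part of zygotic RNA in the dazl level was not tested further. Transcript dazl-004 carried 70.6% ± 4.18 of the dazl CPM in controls and 66.1% ± 5.19 in BaP embryos (SD, n = 3).

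**Figure D1:**
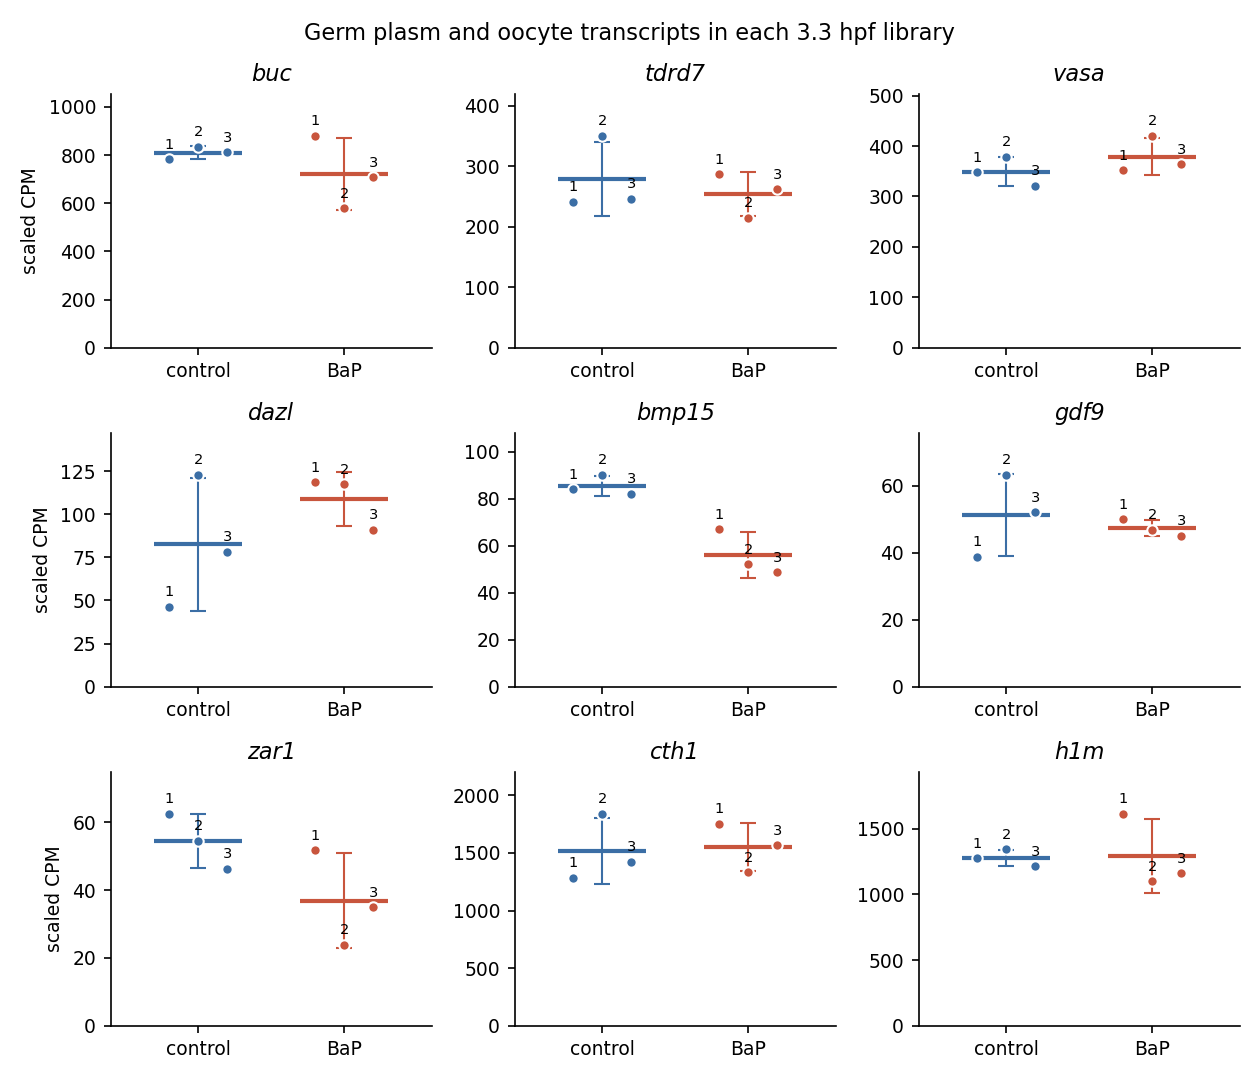
Scaled CPM of each of the 9 genes in the 6 libraries at 3.3 hpf, 1 panel per gene with its own axis from 0. Points are libraries numbered by replicate, horizontal bars are group means and error bars are SD (n = 3). For bmp15 every BaP library lies below every control, and in the other 8 panels the groups overlap.

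**Figure D2:**
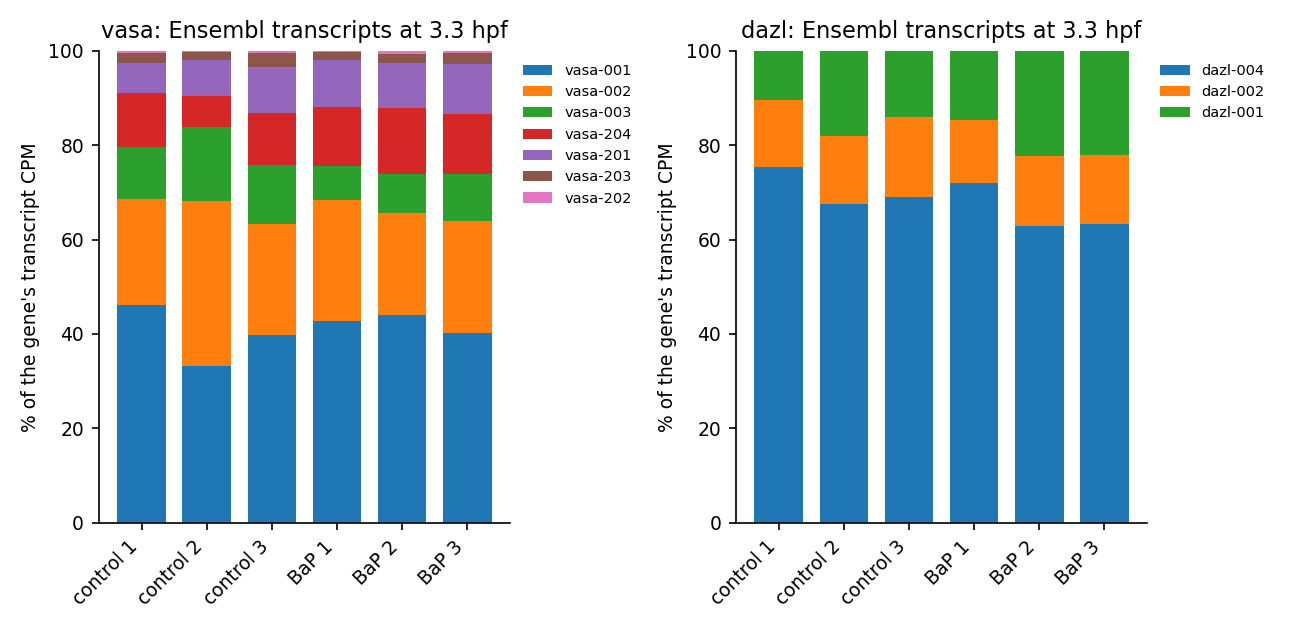
Share of the gene's CPM on each Ensembl transcript in each 3.3 hpf library, for vasa (7 transcripts) and dazl (3 transcripts), in percent on the vertical axis. The transcript with the largest mean share in controls, vasa-001 or dazl-004, is at the bottom of each bar and remained the largest in all libraries except control replicate 2 for vasa, where vasa-002 was larger.

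Among the oocyte growth factors, bmp15 encodes a secreted protein of the TGF-beta family that the oocyte sends to the follicle cells around it. Control libraries held 84.0, 90.1 and 82.2 CPM, and BaP libraries held 67.1, 52.2 and 48.7 CPM. All 3 BaP libraries lay below all 3 controls, and the group means were 85.4 ± 4.17 and 56.0 ± 9.75 CPM (SD, n = 3). The log2 difference was -0.62 (SE 0.14, 95% interval -0.95 to -0.29), which placed bmp15 at 13 of 14236 genes by unadjusted p (limma, 0.00276). It did not pass over all genes (limma adjusted p = 0.906). Counting error was smaller than this gap, since the lowest control rested on about 1505 reads and the highest BaP library on about 1330 reads. Their exact Poisson 95% intervals were 80.5 to 89.1 and 61.2 to 68.2 CPM as deposited, and cover counting error only. Leaving out any 1 library kept the difference between -0.75 and -0.53, and it was -0.58 with the early zygotic mean as a covariate (limma adjusted p = 0.763). Transcript bmp15-001 was the one bmp15 transcript listed.

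The gene gdf9 encodes the closely related oocyte factor that acts together with BMP15 in mammals. Control libraries held 38.8, 63.3 and 52.1 CPM, and BaP libraries held 50.0, 46.9 and 45.1 CPM. The BaP libraries lay within the range of the controls. The log2 difference was -0.09 (SE 0.18, 95% interval -0.52 to 0.34, limma adjusted p = 0.949). The intervals of bmp15 and gdf9 overlapped, and their differences were not tested against each other.

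Among the maternal regulators, zar1 encodes an oocyte RNA-binding protein that holds maternal messages in a repressed state. Control libraries held 62.5, 54.6 and 46.4 CPM, and BaP libraries held 51.8, 23.9 and 35.0 CPM. BaP replicate 1 lay among the controls and the other 2 BaP libraries below them. The log2 difference was -0.62 (SE 0.27, 95% interval -1.25 to 0.02, limma adjusted p = 0.906). Of the 2 libraries with the most zygotic RNA, BaP replicate 2 had the lowest zar1 level and control replicate 1 the highest. Without BaP replicate 2 the difference was -0.34. It was -0.24 when control replicate 1 was also left out, and -0.89 without BaP replicate 1. With the early zygotic mean as a covariate it was -0.53 (limma adjusted p = 0.763).

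The gene cth1 encodes a maternal protein with zinc fingers of the kind that bind AU-rich elements in messenger RNA. Control libraries held 1286, 1840 and 1424 CPM, and BaP libraries held 1755, 1334 and 1568 CPM. The groups covered almost the same range, and the log2 difference was 0.04 (SE 0.15, 95% interval -0.31 to 0.39, limma adjusted p = 0.975). Transcript cth1-201 took 4.28% ± 1.1 of the cth1 CPM in controls and 2.55% ± 0.82 in BaP embryos (SD, n = 3), and cth1-001 the rest. The gene h1m encodes the linker histone of the oocyte and early embryo. Control libraries held 1274, 1343 and 1216 CPM, and BaP libraries held 1614, 1100 and 1161 CPM. BaP replicate 1 lay above the controls and the other 2 BaP libraries below them, and the log2 difference was 0.00 (SE 0.14, 95% interval -0.33 to 0.32, limma adjusted p = 0.997).

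**Figure D3:**
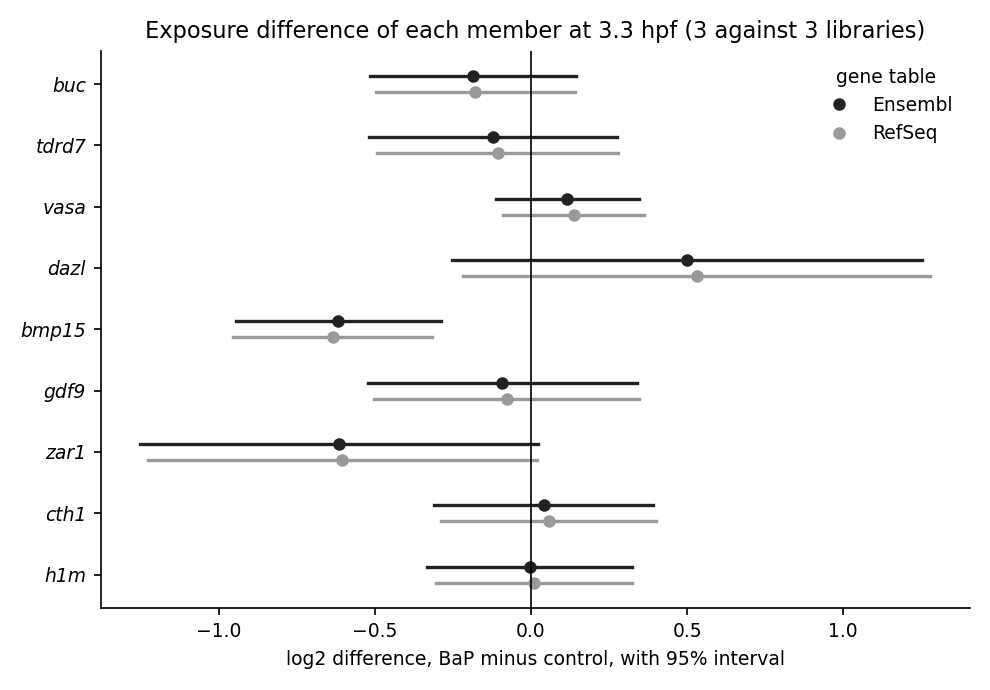
Log2 difference between BaP and control at 3.3 hpf for each of the 9 genes (3 against 3 libraries), with 95% intervals from limma that are not adjusted for the number of genes. Black is the Ensembl and grey the RefSeq gene table; bmp15 has the one interval that lies below 0, and the same genes sit at nearly the same place in both tables.

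Over the 9 genes at 3.3 hpf, 6 had a mean difference below 0 and 3 above it, with a median of -0.09 against 0.005 over all genes. The median was 0.067 without control replicate 2, and between -0.204 and -0.004 with any other 1 library left out, so its sign rested on 1 library. Differences below 0 were found for 49% of all genes. None of the 9 was called, against 0% of all genes in limma, where 704 genes (4.95%) had an unadjusted p under 0.05 and bmp15 was the one member among them. Groups did not overlap with BaP lower for 1 of the 9, bmp15, against 5.3% of all genes. In the RefSeq gene table, bmp15 had a log2 difference of -0.64 (limma adjusted p = 0.858) and zar1 of -0.60 (adjusted p = 0.858), and 4 members lay above control and 5 below. There the background of genes with BaP lower and no overlap was 5.47%, and bmp15 was again the one member.

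The members also varied between libraries of 1 group. The lowest value lay in control replicate 1 or BaP replicate 2 for 7 of the 9 genes (77.8%), against 36.2% of all genes and 37.95% of genes at 10 CPM or more on average. These were the libraries with the most early zygotic RNA. The highest value lay in control replicate 2 or BaP replicate 1, those with the least, for 7 of the 9 genes (77.8%). This compares with 34.9% of all genes and 40.4% of genes at 10 CPM or more. The exceptions for the lowest value were bmp15, lowest in BaP replicate 3, and vasa, lowest in control replicate 3. The exceptions for the highest were zar1, highest in control replicate 1, and vasa, highest in BaP replicate 2. Related lists had like shares, with the lowest value in the first pair of libraries for 80% of 20 germ plasm and piRNA genes and 76.7% of 30 oocyte and egg genes. Their highest value lay in the second pair for 65% and 53.3%. The part of zygotic RNA in this pattern was not tested.

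**Figure D4:**
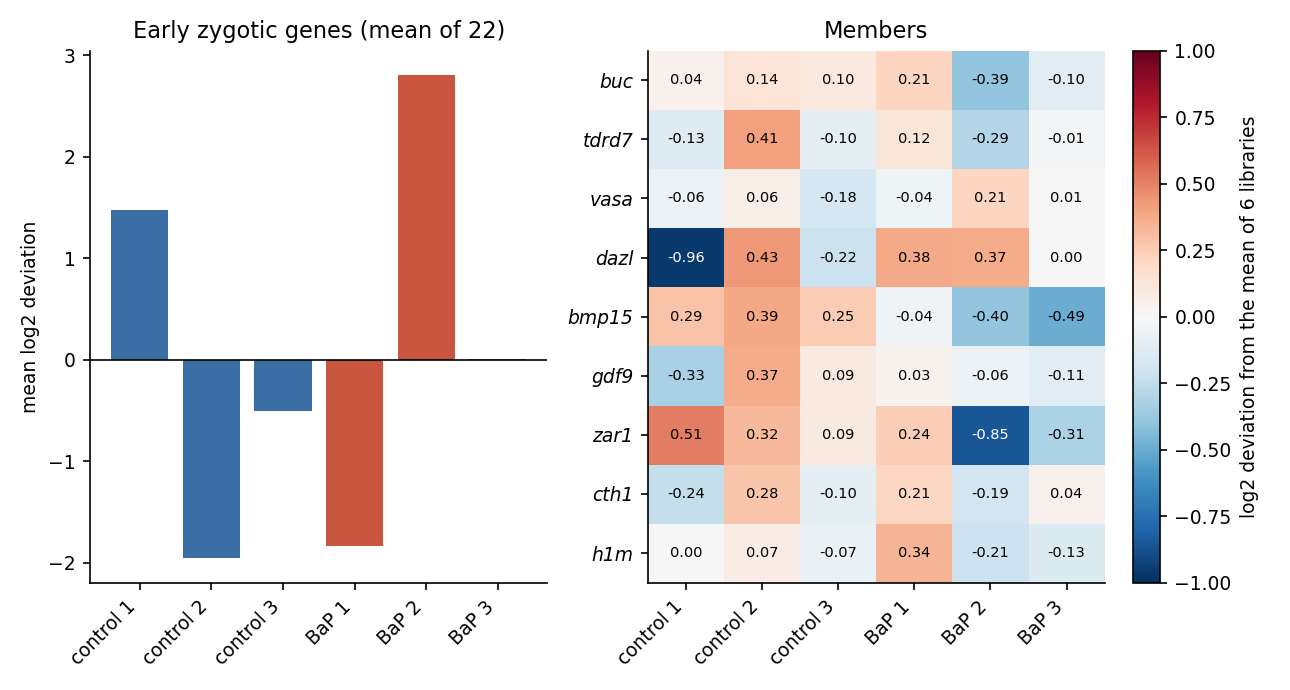
Left, mean log2 deviation of 22 early zygotic genes in each 3.3 hpf library, from -1.96 in control replicate 2 to 2.81 in BaP replicate 2. Right, log2 deviation of each of the 9 genes from its own mean over the 6 libraries, on a colour scale from -1 to 1; for bmp15 the 3 controls are all above 0 and the 3 BaP libraries all below.

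The other genes of the germ plasm and the piRNA pathway, which silences transposons in germ cells, gave no call at 3.3 hpf. Of 26 genes on that list 20 were listed, 0 passed limma's adjusted p, 7 lay above control and 13 below, with a median of -0.05. The germ plasm RNA ca15b had the smallest p, with control values of 171, 299 and 153 CPM and BaP values of 126, 122 and 161 CPM (log2 -0.56). The germ granule gene tdrd5 followed at 94.4, 54.3 and 39.2 CPM against 53.6, 31.4 and 42.0 CPM (log2 -0.50). In both genes 1 control library stood above all others, and the groups overlapped. The most abundant of the list by CPM in controls were igf2bp3, which encodes a messenger RNA-binding protein, with a control mean of 533 ± 38.7 CPM and a BaP mean of 530 ± 22.2 CPM, and the kinesin gene kif5ba at 281 ± 7.54 and 296 ± 14.9 CPM (n = 3).

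Of 38 further oocyte and egg genes 30 were listed at 3.3 hpf, and 0 passed limma's adjusted p, 11 above control and 19 below, with a median of -0.16. The gene btg4, which encodes an adaptor of the deadenylase that clears maternal RNA, had control values of 286, 352 and 267 CPM and BaP values of 257, 220 and 226 CPM. The gene lhx8a, which encodes a homeodomain transcription factor of oocytes, stood at 23.8, 23.1 and 25.2 CPM and at 15.3, 21.1 and 15.0 CPM. In both, every BaP library lay below every control, with log2 differences of -0.36 and -0.50 and a limma adjusted p of 0.906 each. Groups did not overlap with BaP lower for these 2 of the 30 genes, beside 5.3% of all genes, and with BaP higher for 2, ybx1 and figla, beside 6.25% of all genes. The 2 most abundant by CPM in controls were ccnb1, which encodes a mitotic cyclin, with a control mean of 1596 ± 152 CPM and a BaP mean of 1682 ± 216 CPM, and lsm14b, which encodes an RNA-binding protein of messenger particles, at 508 ± 11.8 and 487 ± 67.4 CPM (n = 3).

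The receptors, SMADs and processing enzyme of the TGF-beta family gave 0 calls over 16 listed genes of 25 at 3.3 hpf, 11 above control and 5 below (median 0.11). The type I receptor gene acvr1b was higher in every BaP library than in any control, at 288, 304 and 287 CPM against 332, 356 and 317 CPM (log2 0.20, limma adjusted p = 0.906). Groups did not overlap with BaP higher for 2 of the 16 genes, acvr1b and acvr1l, beside 6.25% of all genes. With BaP lower and no overlap there were 0 of the 16, beside 5.3% of all genes. The receptor gene bmpr1bb had log2 0.72 with overlapping groups. Genes of maternal RNA clearance gave 0 calls over 26 of 32, 16 above and 10 below (median 0.07). The decapping cofactor genes edc4 and edc3 had the smallest p, at log2 0.21 and 0.22, each with all BaP libraries above all controls. Without overlap and with BaP higher were 4 of these 26 genes, beside 6.25% of all genes. With BaP lower there was 1, the decapping gene dcp1a (log2 -0.25), beside 5.3% of all genes.

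The remaining lists also gave 0 calls at 3.3 hpf. Of 8 listed meiosis genes of 21, 4 lay above control and 4 below (median -0.13), with sycp2, a synaptonemal complex gene, at log2 0.78 and psmc3ip, a recombination factor gene, at -0.35. Of 6 germ cell migration genes of 9, 5 lay above control (median 0.59), with cxcr4a, a chemokine receptor gene, at 1.01 and hmgcrb, a sterol synthesis gene, at -0.10. The receptor genes cxcr4a, cxcr4b and cxcr7b were highest in BaP replicate 2, at 84.4, 76.4 and 40.0 CPM. In BaP replicate 1 they stood at 3.43, 1.76 and 0.20 CPM, and their groups overlapped. The 22 early zygotic genes listed of 46 had 17 above and 5 below control (median 0.49), and the smallest p belonged to the T-box gene tbx16 at 2.21 and the keratin gene krt8 at 1.39. Both lay at 90 CPM or more in BaP replicate 2 and under 6 CPM in the other libraries, so that 1 library set these differences. The list had a summed level between 77.8 and 546 CPM over controls and between 71.0 and 1465 CPM over BaP libraries. Its most abundant genes by CPM in controls were the signalling gene wnt8a at 42.4 ± 8.38 and the zinc finger gene blf at 37.2 ± 39.7 CPM (n = 3). Unlike the list mean, wnt8a was highest in control replicate 2 (51.6 CPM) and BaP replicate 1 (50.3 CPM), the libraries with the least zygotic RNA. It made up most of the 77.8 and 71.0 CPM summed there, so these sums are not all zygotic RNA of the kind the list stands for. The somatic linker histone genes h1fx and histh1l, 2 of 9 entries on their list, stood at 1.84 ± 0.23 and 1.52 ± 1.1 CPM in controls (n = 3), with log2 differences of 0.21 and -0.06 (median 0.08). Of 16 genes of the gonad soma 2 were listed, dmrt1 at log2 -0.61 and cyp17a1 at 0.01, with a median of -0.30.

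In their pattern over the 6 libraries, the mean profile of the 9 genes lay nearest to that of RFWD3, with a root mean square difference of 0.038 in log2 deviation, among genes above 10 CPM on average. An entry with the name zgc:171776 in the current Ensembl naming and the gene dut followed, at 0.040 each. By the same measure the nearest gene was TARBP1 (2 of 2) for bmp15 (0.089), adh5 for zar1 (0.12), sesn2 for dazl (0.21), kin for gdf9 (0.052) and gpr161 for buc (0.029). It was DCUN1D3 for cth1 (0.031), nfyc for vasa (0.033), fxn for h1m (0.038) and UBE2Z for tdrd7 (0.038). The measure favours genes that vary little.

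At 96 hpf the members were nearly gone from the tables. Of the 9 genes 1 (11.1%) was listed in either annotation, against 89.9% of all Ensembl genes listed at 3.3 hpf. Among genes at 30 CPM or more in 3.3 hpf controls, a level that all 9 genes passed and that was set after their values were seen, 97.2% were listed at 96 hpf. The 9 genes were chosen as maternal and germ plasm RNAs, with earlier results of these data known. That choice itself favours a low share at 96 hpf, so neither comparison is a test. Every listed gene at 96 hpf stood above 1 CPM in at least 2 libraries, and no level can be given for the other 8. In whole animals, a smaller share of germ cells, loss of copies in other cells and less RNA per germ cell cannot be told apart.

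The remaining member, vasa, stood at 1.75 and 1.1 CPM in the 96 hpf controls and at 1.80 and 1.38 CPM in the BaP larvae. These levels rested on 23, 19, 28 and 23 reads, whose exact Poisson 95% intervals ran from 0.70 CPM at the lowest to 2.62 CPM at the highest as deposited. All 4 intervals overlapped, and so did the groups. The control mean of 1.42 ± 0.46 CPM (n = 2) was 0.407% of the 349 ± 28.8 CPM (n = 3) of 3.3 hpf controls, in tables scaled separately and without a test. The log2 difference between BaP and control at 96 hpf was 0.13 (SE 0.33, 95% interval -0.62 to 0.89, limma adjusted p = 0.861), where 0.423% of all genes were called and 47.8% lay below control. Single libraries set its sign, with -0.12 without control replicate 2 and 0.38 without control replicate 1. The effects at the 2 ages differed by 0.02 (95% interval -0.52 to 0.56, limma adjusted p = 0.982), in a test that called 0.0234% of genes. In the RefSeq table, where 0.54% of genes were called, vasa stood at 1.90 and 1.31 CPM in controls and at 2.11 and 1.58 CPM in BaP larvae. No vasa transcript was listed in the Ensembl transcript table at 96 hpf.

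Of the other germ plasm and piRNA genes, 20 were listed at 3.3 hpf, and 9 of these (45%) were listed at 96 hpf. The piRNA pathway gene piwil1, which encodes a Piwi protein, averaged 0.59 ± 0.02 CPM in control larvae and 1.14 ± 0.17 CPM in BaP larvae (n = 2). The Tudor genes tdrd1 and tdrd9 stood at 0.92 ± 0.32 and 1.21 ± 0.42 CPM in controls. These were 1.02%, 0.431% and 1.29% of the respective 3.3 hpf control levels. The piRNA methyltransferase gene henmt1, at 1.81 ± 0.27 CPM, stood at 38.3% of its 3.3 hpf control level of 4.7 ± 1.6 CPM. From so low a level, the listing limit of 1 CPM in 2 libraries keeps such a share from being small. The henmt1 share is therefore not comparable with those of piwil1, tdrd1 and tdrd9. The genes celf1, igf2bp3 and kif5ba, whose products also act in somatic cells, stood at 95.4 ± 8.25, 122 ± 2.18 and 151 ± 1.07 CPM (n = 2), or 41.9%, 22.9% and 53.7% of the earlier level. The germ cell genes nanos3, dnd1, tdrd6 and ca15b were not listed at 96 hpf. The entry TDRD7 (1 of 2) was listed at both ages, at 8.20 and 6.23 CPM in 96 hpf controls and 6.48 and 5.40 CPM in BaP larvae.

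**Figure D5:**
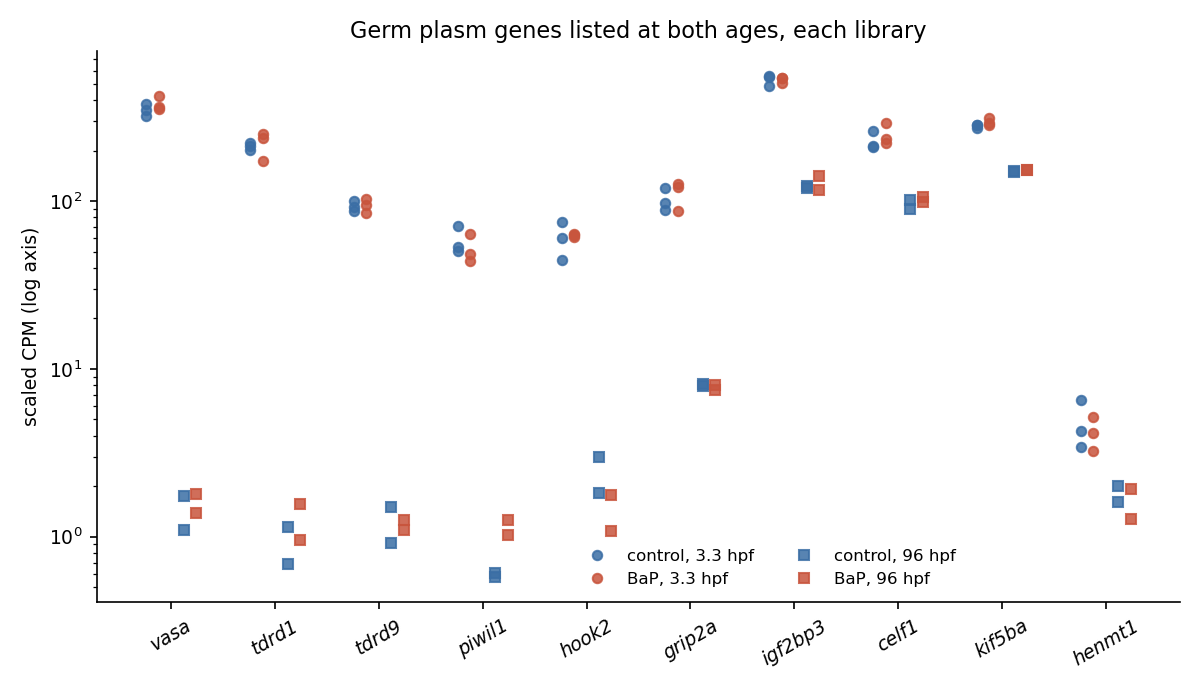
Scaled CPM in each library, on a log axis, of vasa and the 9 other germ plasm and piRNA genes listed at both ages (circles 3.3 hpf, squares 96 hpf, blue control, red BaP). The ages come from tables scaled separately; vasa, tdrd1, tdrd9 and piwil1 lie under 2 CPM in every 96 hpf library, while igf2bp3, celf1 and kif5ba stay above 80 CPM.

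Exposure gave 0 calls in limma among these genes at 96 hpf, beside 0.423% of all genes. In this comparison 50.4% of all genes had groups that did not overlap, and 2981 genes had an unadjusted p under 0.05. Of 9 germ plasm genes, 5 lay above control and 4 below (median 0.03), with the linker protein gene hook2 at log2 -0.59 (limma adjusted p = 0.427). The gene piwil1 stood above 1 CPM in the BaP larvae and not in the controls. It was therefore listed only through the group where it was higher, and its difference is not read as an exposure effect. The 5 genes above control and the median of 0.03 include piwil1. Of 9 oocyte and egg genes, 7 lay above and 2 below (median 0.19), and 3 had an unadjusted p under 0.05 (15.8% of all genes). All 3 encode egg envelope proteins. The egg envelope gene zp2.2 was listed at effectively 0 in both controls and at 1.53 and 1.1 CPM in BaP larvae. Its relative zgc:66432, an older name of zp3d.1, stood at 0.46 and 0.52 CPM against 2.31 and 1.86 CPM. Both genes passed the listing limit of 1 CPM in 2 libraries only through the BaP larvae, which fixed their direction, so no difference is read from them. The 7 genes above control, the median of 0.19 and the 3 with p under 0.05 include both. These values are thus not read as exposure effects or against the 15.8%. The third, zp3a.2, stood at 4.18 and 4.24 CPM against 8.79 and 8.03 CPM (log2 0.92, limma adjusted p = 0.176). Egg envelope genes have close copies, so reads could be split between them and these values are uncertain.

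The other lists likewise gave 0 calls in the Ensembl table at 96 hpf, beside 0.423% of all genes. Of 23 receptors and SMADs, 9 lay above control and 14 below (median -0.10), with the receptor genes tgfbr1b at log2 -1.56 (limma adjusted p = 0.176) and bmpr2b at -1.27 (adjusted p = 0.178). Of 26 clearance genes 16 lay above and 10 below (median 0.06), with cnot3b, a deadenylase subunit gene, at -0.53 and tob1b, which encodes a partner of that complex, at 0.36. The 5 meiosis genes had a median of 0.40, with mnd1, a recombination factor gene, at 0.40 (adjusted p = 0.376). That median includes sycp1, at 0.84 and 0.87 CPM in controls and 1.48 and 1.92 CPM in BaP larvae, which was likewise listed only through the BaP larvae. Among 8 migration genes 5 lay above (median 0.04), with the chemokine receptor gene cxcr4b at 3.27 and 4.15 CPM in controls and 6.80 and 7.99 CPM in BaP larvae (log2 0.91, adjusted p = 0.195) and the cadherin gene cdh1 at 0.34. The 3 linker histone genes had a median of 0.36, with h1fx at 0.54 and histh1l at 0.36. Of 8 gonad soma genes 3 lay above and 5 below (median -0.22), with sox9a at -0.76 and wt1a at -0.68, both of which other tissues also express. The 3 above control include dmrt1, at 0.61 and 0.865 CPM in controls and 1.09 and 1.93 CPM in BaP larvae. It too was listed only through the BaP larvae. The gonad genes amh, gsdf and cyp19a1a were not listed. The early zygotic list had 20 of 26 genes above control (median 0.19), with the epithelial genes cldne at 0.73 and grhl3 at 1.21. The 20 include eve1, which stood above 1 CPM in the BaP larvae only and was listed through them. The 14 larval tissue genes had 7 above and 7 below (median 0.03), with the liver gene fabp10a at 1.67 (adjusted p = 0.0512) and the trypsin gene try at 0.82. In the RefSeq table, where 0.54% of all genes were called, fabp10a was called (limma adjusted p = 0.0409). There the medians of the germ plasm list at -0.06, the clearance list at -0.04, the migration list at -0.005 and the larval list at -0.015 had the opposite sign.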

How the data were processed

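As deposited, values were taken to be CPM with no length correction, as an earlier account of these data describes them, although the files are named as counts. Per the file headers the tables use Ensembl release 70 or RefSeq transcripts, and Partek, TopHat, edgeR and Zv9 are named, without roles or versions, in the submitters' processing notes. Whole reads could not be recovered (35.0% to 65.0% of Ensembl values were whole within 0.05 reads), so no count test was run. Depth was read from the CPM of 1 read.

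CPM were rescaled by TMM computed anew (trims of 30% and 5%), and log2(CPM + 0.5) was fitted with limma 3.58.1 in R 4.3.3 (trended spread, all genes, Benjamini-Hochberg, threshold 0.05). Such log2 differences understate the change of low genes. RefSeq columns at 3.3 hpf carry letters and were used by group.

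Members and lists were chosen with earlier results of these data known. Named genes are all members, the 2 genes of each list with the smallest p at each age, the 2 most abundant of 3 lists at 3.3 hpf, and nearest genes by profile. Outside this rule, and named after values were seen, are further germ plasm genes listed at both ages, ybx1, figla, acvr1l, dcp1a and zp3a.2. So are cxcr4b and cxcr7b at 3.3 hpf, and dmrt1 and eve1 at 96 hpf. Germ cell and gonad markers not listed at 96 hpf come from the marker lists. Alternatives were median-ratio scaling, CPM as deposited, pseudocounts of 0.1 and 2, a minimum mean of 5 CPM, the RefSeq tables, a spread without trend, 1 fit of all libraries, a replicate block, an early zygotic covariate and each library left out.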

Additional observations from a re-analysis of the deposited data

How the results depend on the processing

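None of the 9 genes was called in limma under any alternative that held it. At 96 hpf only vasa could be called, and the minimum mean of 5 CPM left it out there. Of the 9 genes, the fit of all 10 libraries held only vasa. At 3.3 hpf 0 genes were called in the main fit and in the other alternatives, and 0 to 1 with a library left out, the 1 gene being CCBL2 (1 of 4), without BaP replicate 2. At 96 hpf the 80 calls became 38 on CPM as deposited, 2 with a spread without trend and 3 with all 10 libraries in 1 fit, and 32 to 3217 with a library left out. The 3 calls for the difference between ages became 1 with a spread without trend and 0 to 86 with a library left out. The cause was not tested. With a replicate block 0 genes were called at 3.3 hpf and 155 at 96 hpf, and bmp15 kept an adjusted p of 0.983. The main fits did not pair samples by number. Deviations from the group mean had correlations of -0.54, -0.53 and 0.024 between same-numbered libraries at 3.3 hpf. They were 0.55 between control replicate 1 and BaP replicate 2, and 0.52 between control replicate 2 and BaP replicate 1. The other crossed pairs at 3.3 hpf lay between -0.107 and 0.093. At 96 hpf the correlations were -0.315 for same-numbered and 0.315 for crossed libraries, since the 2 deviations of a group mirror each other. Such values cannot show whether same-numbered libraries shared a clutch or batch. A crossed pairing at 96 hpf, added after the values were seen, gave 2186 calls.

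The differences of bmp15, zar1, buc, dazl and vasa at 3.3 hpf kept their sign in every alternative that held them. That of h1m, at 0.00, was 0.01 in the RefSeq table, 0.047 with the zygotic covariate and 0.10 without control replicate 1 and BaP replicate 2 together, a choice made after the values were seen. Leaving out 1 library moved h1m between -0.18 and 0.10, cth1 between -0.062 and 0.20, gdf9 between -0.27 and 0.084, tdrd7 between -0.21 and 0.067, and vasa at 96 hpf between -0.12 and 0.38. The vasa difference between ages was -0.043 with a pseudocount of 2 and moved between -0.23 and 0.265 with a library left out. Where 1 library was left out of a group of 2, the remaining one was taken to have the spread of the others. With 2 or 3 libraries a group, differences of the size of a replicate's deviation could not be detected. Larger ones could also go uncalled, as did bmp15 at 3.3 hpf, at -0.62 with SE 0.14 (limma adjusted p = 0.906).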
